A study of Homo sapiens with 4 samples.

Results

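The genes described here are those whose dominant isoform changed identity between control siRNA and SNRNP40 depletion while the output of the gene stayed nearly level. The samples were 4 RNA libraries of LV-M100, a low-variability clone derived from the human breast cancer line MDA-MB-231, collected 48 h after transfection with Lipofectamine 2000 and depleted of ribosomal RNA. The first control library came from cells given the NC1 siRNA (replicate 1) and the other from cells given BLOCK-iT Fluorescent Oligo (replicate 2), while siSNRNP40 #1 and siSNRNP40 #2 were used for 1 depleted library each. LV-M100 is 1 clone, all 4 libraries were transfected, and the authors merged the 2 libraries of a condition into a single value. No value below therefore carries a replicate error, and every difference is a description of these pooled libraries. The authors' own test between the conditions was not used, and no other could be made from the pooled values.

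The table lists 44578 transcripts under 23217 gene symbols, with an FPKM value (fragments per kilobase of transcript scaled to the number of mapped fragments) for each condition. FPKM was summed over the transcripts of a symbol, and the share of a transcript is its FPKM as a percentage of that sum. A gene was eligible when it had 2 to 9 listed transcripts, a summed FPKM of at least 10 in both conditions, sums within 0.5 of each other on the log2 scale, and no transcript whose estimate had failed. There were 2579 eligible genes. A gene was called switching when its most abundant transcript differed between the conditions and the transcript that led after control siRNA changed its share by at least 30 percentage points. This rule found 40 genes, 1.55% of those eligible. Because the members were chosen on these shares, their shares are descriptive and carry no evidence of their own.

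Most human genes can be transcribed and spliced into several mature RNAs that differ in their first exon, internal exons or last exon. Splicing is carried out by the spliceosome, whose U5 particle, to which SNRNP40 belongs, holds the ends of the exons in place while they are joined. A change in which isoform leads can alter the encoded protein, or only the untranslated parts of the RNA, and it can leave the summed abundance of the gene as it was.

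The siRNAs against SNRNP40 are shown because they are what separates the conditions. Their strands, 5′ to 3′ as given in the sample labels, are:
siSNRNP40 #1: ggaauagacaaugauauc
siSNRNP40 #2: ggauuugaccgacugaua
SNRNP40 has 1 listed transcript, and its FPKM went from 40.4 to 6.12, leaving 15.1% of the control level. Of 6 mesenchymal markers of the line, 5 were well above 1 FPKM, such as VIM at 750.1 FPKM after control siRNA, and SPARC was at 0.240 FPKM. Among markers that should be low, ESR1, PGR and CDH1 were under 0.1 FPKM in both conditions, whereas ERBB2 was at 6.56 and EPCAM at 10.6 after control siRNA. Of 6 markers of other cell types, PECAM1 had the highest value, 1.2 FPKM after depletion, and PTPRC, VWF and ALB were listed at 0 in both conditions.

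Coding sequences annotated by GENCODE on GRCh37, which has the coordinates of hg19, give the protein choices of these genes. More than 1 consensus coding sequence is annotated for 30 of the 40 genes (75%), against 76.7% of eligible genes. In 15 of the 40 (37.5%, against 32.2%) these sequences start at different codons, and in 16 (40%, against 28.8%) they end at different codons. In 17 (42.5%, against 37.2%) they differ by a coding exon that is included or skipped. The remaining 10 genes, MAPKAPK3, WDR5, PIR, TCEAL1, MID1IP1, CDC7, CAPNS1, RAP1A, TRIM65 and PEX19, have a single one. The deposited transcripts carry assembly numbers in place of accessions and no exon structure, so which annotated isoform each value belongs to is not given in the sources used here.

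For 6 of the 17 genes the splice sites of 1 such exon are shown, as examples chosen with the values known, because these are the sequences at which the spliceosome chooses between annotated proteins. TJP1 has a skipped exon of 240 bases on the minus strand (chr15:30011981-30012220, exon 20 of the main transcript), which encodes 80 residues. RBM10 has one of 231 bases on the plus strand (chrX:47030427-47030657, exon 4), which encodes 77 residues. The exon of MDM4 has 68 bases (plus strand, chr1:204506558-204506625, exon 6) and shifts the reading frame when skipped. Those of CDC25B (chr20:3781390-3781512, exon 6, 123 bases), GEMIN2 (chr14:39594196-39594240, exon 6, 45 bases) and BACE2 (chr21:42622679-42622828, exon 7, 150 bases) lie on the plus strand and keep the frame. In each window, read 5′ to 3′ along the gene from GRCh37, capitals mark bases of the exon and lower case bases of the intron:
TJP1 3′ splice site: atattttaaacacttcacagAAA
TJP1 5′ splice site: AAGgtacct
RBM10 3′ splice site: catctcattctgtcggccagGAT
RBM10 5′ splice site: GACgtacgt
MDM4 3′ splice site: ttgttttacttgctatccagATG
MDM4 5′ splice site: AAGgtaaaa
CDC25B 3′ splice site: cgccctgcctggctctctagGTG
CDC25B 5′ splice site: AATgtgcgc
GEMIN2 3′ splice site: agtctcattttttctttcagATT
GEMIN2 5′ splice site: CAGgtaaaa
BACE2 3′ splice site: tgtgatcttgttttgtctagATT
BACE2 5′ splice site: CAGgtatga
All 6 exons have the usual ag before and gt after the exon. Their 5′ splice sites match the consensus at 4 positions of 9 in CDC25B, at 6 in TJP1, RBM10 and MDM4, and at 7 in GEMIN2 and BACE2. CDC25B, GEMIN2, MDM4 and BACE2 each have a further exon of this kind, and no measurement here is tied to an exon.

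Among the 40 switching genes, the transcript that led after control siRNA held a median share of 60.8% there (range 34.6 to 95.7%) and 17.8% after depletion (range 0.0022 to 49.9%). The transcript that led after depletion went from a median of 23.1% to 63.6%. The share of the former leader was lower after depletion in all 40 genes, by a median of 41.1 points. Across all eligible genes the median absolute change of the same share was 4.05 points. In 26 genes both leaders held more than 50% in the condition in which they led. In 37 of 40 genes the former leader was more than 2-fold lower or listed at 0 after depletion, and in 26 of 40 the new leader was more than 2-fold higher or had been listed at 0. Of all transcripts above 0 in both conditions and averaging 1 FPKM or more, 5.04% were that much lower and 5.5% that much higher. The rule selected for this contrast, so nothing is read from it.

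**Figure D1:**
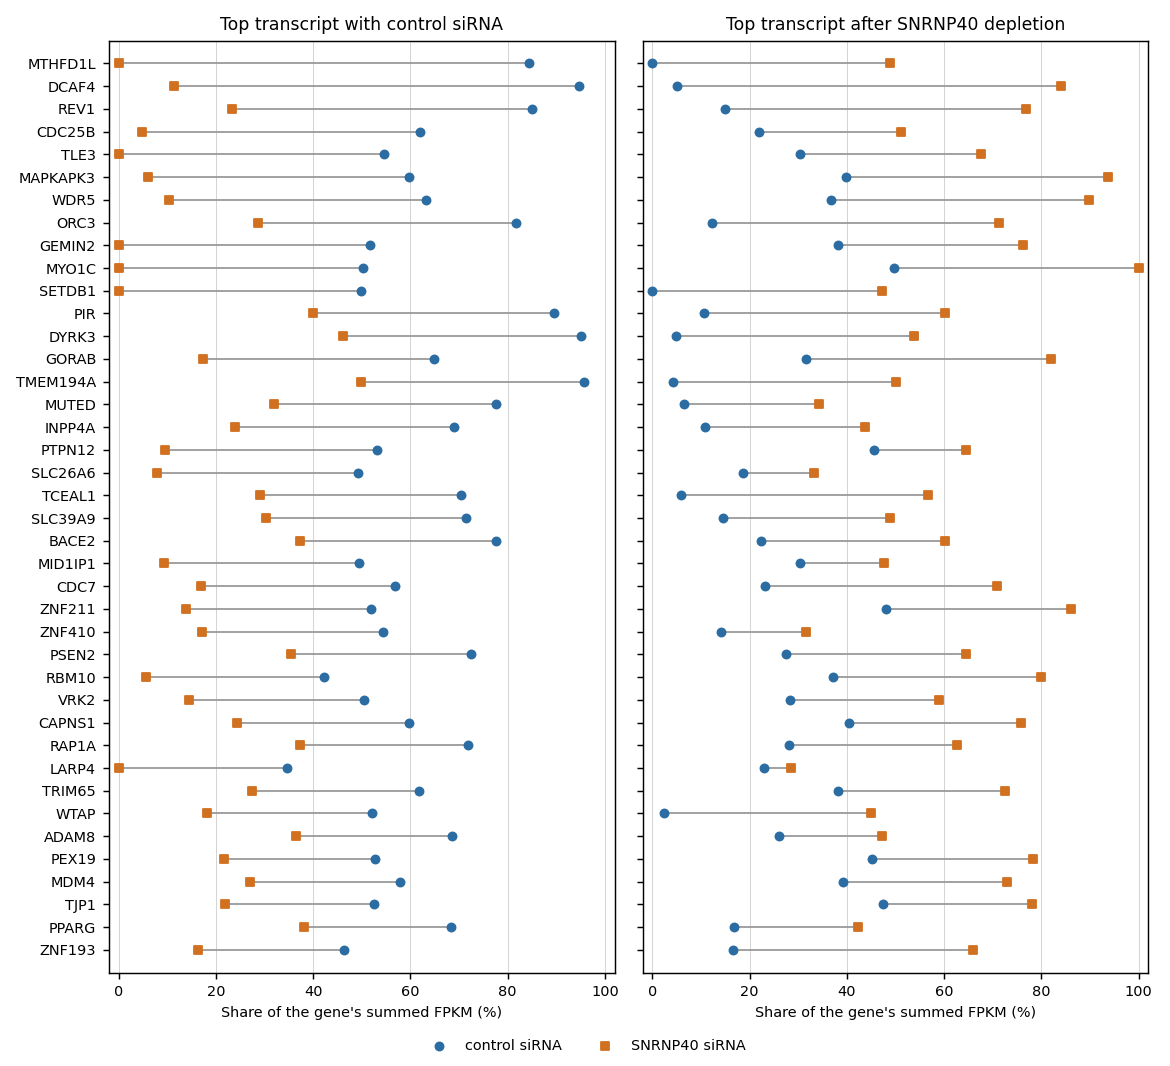
Share of the summed FPKM (%) held by the transcript that led after control siRNA (left) and by the one that led after SNRNP40 depletion (right) in the 40 switching genes, ordered by the size of the change. Circles are control siRNA and squares SNRNP40 siRNA, 1 pooled value each; every square lies left of its circle in the left panel and right of it in the right panel.

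The summed FPKM of the switching genes was low to moderate, with a median of 17.2 over both conditions against 27.1 for all eligible genes. It was higher after depletion in 24 and lower in 16, beside 47.4% of eligible genes with a higher sum. The log2 ratio of the sums ran from -0.33 for CAPNS1 to 0.31 for PIR, with a median of 0.034, and in 17 genes the sums lay within 0.1 of each other.

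**Figure D2:**
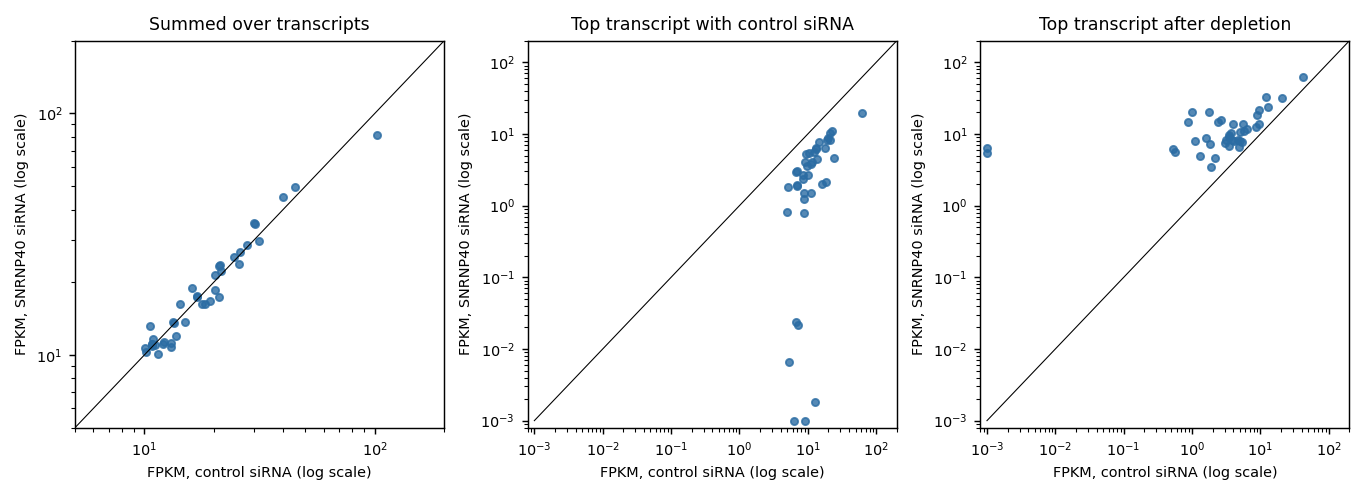
FPKM after SNRNP40 siRNA against FPKM after control siRNA (log scales, 1 point per switching gene) for the sum over transcripts, the former leader and the new leader; values under 0.001 are drawn at 0.001 and the line marks equality. The sums lie along the line, where the rule holds them, all former leaders below it and all new leaders above it.

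The 12 genes with the largest change of share were led by MTHFD1L, which encodes a mitochondrial enzyme of folate metabolism. Of its 6 listed transcripts, the former leader went from 9.10 FPKM to under 0.01 FPKM. Its place was taken by a pair of transcripts that were both under 0.01 FPKM after control siRNA and reached 5.39 and 4.03 FPKM after depletion, while a further transcript stayed at 1.64 and 1.63 FPKM. The sum over all 6 was 10.8 FPKM in the control and 11.05 FPKM after depletion. DCAF4, a substrate receptor of the CUL4 ubiquitin ligase, came next, and there 2 of 9 transcripts traded places. The former leader went from 16.05 to 2.00 FPKM, and the new one from 0.874 to 14.7 FPKM. REV1, a DNA polymerase that copies past damaged bases, has 2 listed transcripts, which went from 13.7 to 4.42 FPKM and from 2.40 to 14.6 FPKM.

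In CDC25B, TLE3 and GEMIN2 more than 1 transcript was higher after depletion. CDC25B, the phosphatase that helps to activate CDK1 at the entry into mitosis, had a leader at 8.86 FPKM after control siRNA that stood at 0.792 FPKM after depletion. Both of its other transcripts were higher after depletion, one going from 3.14 to 8.29 FPKM and the other from 2.31 to 7.13 FPKM. TLE3, a Groucho-type transcriptional corepressor, had a former leader that went from 6.26 to under 0.01 FPKM. Its remaining transcripts went from 3.49 to 6.83 FPKM and from 1.72 to 3.27 FPKM. GEMIN2 belongs to the SMN complex, which loads Sm proteins onto the small nuclear RNAs of the spliceosome. Its former leader was at 5.23 FPKM after control siRNA and under 0.01 FPKM after depletion, and its other transcripts went from 3.86 to 8.14 FPKM and from 1.02 to 2.53 FPKM.

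In MYO1C, MAPKAPK3, WDR5 and ORC3 the new leader was the only transcript that was higher after depletion. MYO1C, a class I myosin that links membranes to actin, was split almost evenly after control siRNA, at 12.9 and 12.7 FPKM. After depletion the former was under 0.01 FPKM and the latter at 23.7 FPKM, or 99.99% of the sum. MAPKAPK3, a kinase activated by p38, went from 18.1 to 2.12 FPKM for the former leader and from 12.1 to 32.6 FPKM for the new one. WDR5, a scaffold of histone H3 lysine 4 methyltransferases, went from 8.66 to 1.23 FPKM and from 5.02 to 10.8 FPKM. ORC3, a subunit of the origin recognition complex, moved in the same manner, its former leader from 17.6 to 6.43 FPKM and its new one from 2.64 to 15.9 FPKM.

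The last 2 of the 12 were SETDB1 and PIR. SETDB1, a histone H3 lysine 9 methyltransferase, had a former leader at 6.61 FPKM that was at 0.0236 FPKM after depletion, and a new leader that went from under 0.01 to 6.47 FPKM. Among these 12 genes, the authors' software marked as not tested the former leaders of SETDB1, MTHFD1L and ORC3 and both leaders of REV1. The other SETDB1 transcripts went from 5.25 to 4.90 FPKM and from 1.41 to 2.33 FPKM. PIR, an iron-binding nuclear protein, kept more of its former leader, which went from 9.47 to 5.23 FPKM, while the new one went from 1.12 to 7.89 FPKM. The locus interval of PIR also holds 2 other symbols, PIR-FIGF and FIGF, so that reads of these overlapping transcripts may have been divided among them.

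**Figure D3:**
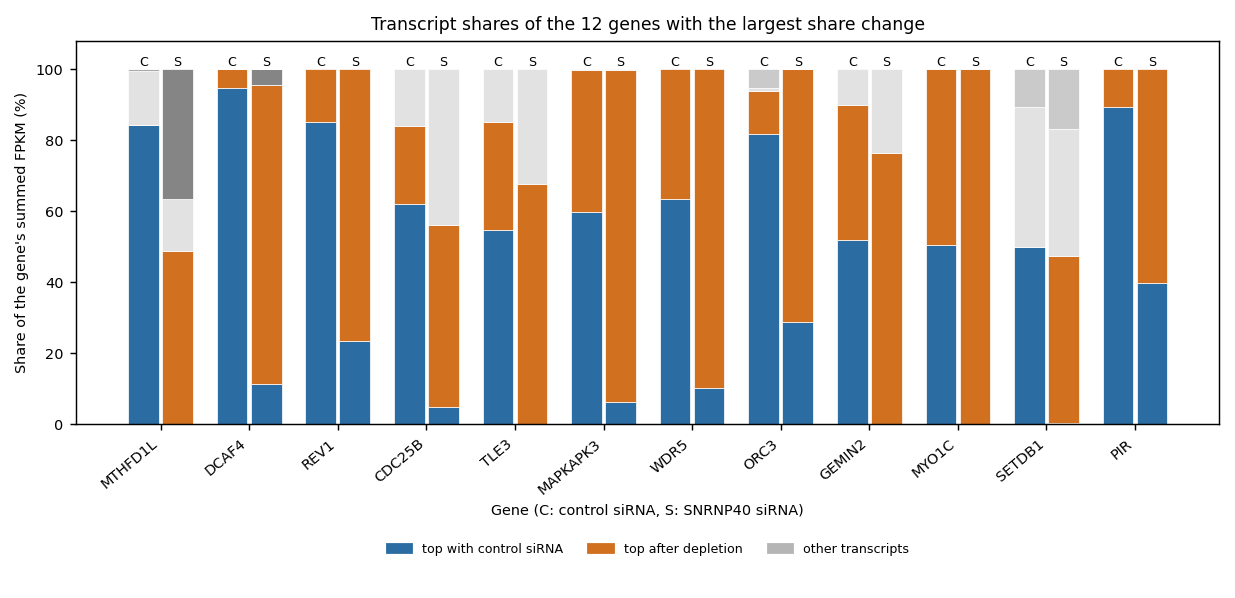
Share of the summed FPKM (%) of each listed transcript in the 12 genes with the largest change, after control siRNA (C) and SNRNP40 siRNA (S). Blue marks the former leader, orange the new leader and grey the other transcripts; blue shrinks and orange grows in each pair of bars, and a grey part grows as well in some genes, among them MTHFD1L, CDC25B, TLE3 and GEMIN2.

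The other transcripts took part in some exchanges and not in others. In 22 of the 40 genes both leaders together held at least 80% of the sum in each condition, which left little room for others. Of these 22 genes, 11 have 2 listed transcripts, so that the condition is met by definition, and 11 have 3 or more. In the remaining 18 genes other transcripts held more than 20% in at least 1 condition. WTAP, a subunit of the complex that writes N6-methyladenosine onto mRNA, is an example with 4 transcripts. A pair with 20.8 and 18.1 FPKM after control siRNA stood at 8.21 FPKM and under 0.01 FPKM after depletion, and the other pair went from 0.985 to 20.3 FPKM and from 0.116 to 16.7 FPKM. In LARP4, which binds the poly(A) tail of mRNAs, the former leader went from 7.28 to 0.0214 FPKM. The LARP4 transcript that then led had 4.84 FPKM after control siRNA and 6.63 FPKM after depletion, and 2 transcripts that had been listed near 0 reached 6.36 and 6.02 FPKM. The new leader of LARP4 thus changed its share by less than did transcripts ranked behind it.

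The 10 switching genes with the highest mean sums include WTAP, MAPKAPK3 and MYO1C, given above, and RBM10, given below. CAPNS1, the regulatory subunit of calpain proteases, had the highest sum, 102.3 FPKM after control siRNA and 81.6 FPKM after depletion. Its 2 transcripts went from 61.0 to 19.8 FPKM and from 41.3 to 61.8 FPKM. PTPN12, a tyrosine phosphatase that acts on adhesion proteins, had 23.9 FPKM for its former leader after control siRNA and 4.69 FPKM after depletion. Its new leader went from 20.5 to 32.0 FPKM, and its remaining transcript from 0.586 to 12.9 FPKM. RAP1A, a small GTPase of integrin-mediated adhesion, went from 22.5 to 11.01 FPKM and from 8.79 to 18.5 FPKM. TCEAL1, a small nuclear protein related to elongation factor A, went from 21.1 to 10.3 FPKM for the former leader and from 1.76 to 19.99 FPKM for the new one.

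SLC39A9, a zinc transporter, and MUTED, a subunit of the BLOC-1 complex of lysosome-related organelles now named BLOC1S5, also belonged to the 10 genes with the highest sums. The former leader of SLC39A9 went from 19.9 to 8.66 FPKM and its new leader from 4.03 to 13.9 FPKM, with a further transcript going from 1.38 to 4.87 FPKM. In MUTED the former leader went from 19.1 to 8.19 FPKM, and after depletion its 3 transcripts were almost level at 8.74, 8.62 and 8.19 FPKM. The locus interval of MUTED is shared with 7 other symbols, the most among the switching genes, and includes read-through transcripts of MUTED with its neighbours. In all, 5 of the 40 genes shared a locus interval with another symbol. Besides PIR and MUTED these were TLE3, BACE2 and VRK2, with 1 other symbol each, and reads may have been divided between symbols there too. Within each of the 40 genes, the authors' software divided fragments among overlapping transcripts by a model.

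The members were next grouped by 21 lists of gene families, matched by exact symbol or family pattern. The lists are not complete, and REV1, GEMIN2 and MID1IP1, for example, stood in none. Each count below therefore covers listed genes only. Of the 40 genes, 22 fell into at least 1 list, and the percentage of eligible genes of a list that switched is to be read against 1.55% of all eligible genes. Among SR proteins, hnRNPs and other splicing regulators 2 of 63 eligible genes switched, RBM10 and DYRK3. RBM10 binds pre-mRNA and regulates exon skipping. Its former leader went from 10.97 to 1.49 FPKM, and its new leader from 9.65 to 21.3 FPKM, or from 37.2 to 79.9% of the sum. DYRK3, a kinase that acts on stress granules and nuclear speckles, had 95.1% of its FPKM in 1 transcript after control siRNA and 46.2% after depletion. None of 25 eligible core spliceosome and snRNP genes and none of 7 eligible genes of nonsense-mediated decay met the rule.

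Genes of the cell cycle, chromosomes and DNA repair gave 3 of 102, namely CDC25B, ORC3 and CDC7. CDC7, the kinase that fires replication origins, went from 8.55 to 2.32 FPKM for its former leader and from 3.51 to 9.67 FPKM for its new one. Among chromatin proteins WDR5 and SETDB1 switched, 2 of 79. Zinc finger and other transcription factors gave 4 of 112. ZNF211 went from 6.96 to 1.88 FPKM and from 6.44 to 11.6 FPKM. ZNF410, which activates CHD4, had a former leader that went from 11.6 to 4.05 FPKM, and the new leader of its 8 transcripts held only 31.7%. PPARG, the nuclear receptor of fat cells, and ZNF193, now named ZSCAN9, lay close to the threshold and are given further on.

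Phosphatases and their subunits had the highest percentage of any list, 7.32%, or 3 of 41 eligible genes, with CDC25B, PTPN12 and INPP4A. INPP4A removes a phosphate from phosphoinositides, and its former leader went from 8.42 to 2.71 FPKM while its new leader went from 1.32 to 4.94 FPKM. A count of 3 leaves this percentage very imprecise. The kinase list gave 1 of 73, MAPKAPK3. It was built from symbol patterns and is not complete: the kinases DYRK3 and CDC7 stood only in the other lists given above, and VRK2 in none. Small GTPases and their regulators gave 1 of 65, RAP1A. The cytoskeleton and its motors gave 1 of 68, MYO1C. Of the ubiquitin system 2 of 104 switched, DCAF4 and TRIM65, a RING-type ligase that went from 6.69 to 2.98 FPKM and from 4.13 to 7.86 FPKM.

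Solute carriers, channels and pumps gave 2 of 54, SLC39A9 and SLC26A6. SLC26A6 exchanges anions across the plasma membrane, and its former leader went from 5.01 to 0.820 FPKM, while the new leader, at 1.91 FPKM in the control, had 3.42 FPKM after depletion. Adhesion, matrix and surface receptor genes gave 2 of 60, ADAM8 and TJP1. ADAM8, a cell-surface metalloprotease, went from 13.2 to 6.11 FPKM and from 5.01 to 7.92 FPKM. No switching gene was found among 81 eligible genes of translation, 80 of vesicle transport, 71 of mitochondrial energy metabolism and 52 of proteasome and chaperones. The same held for 37 listed genes of lipid metabolism, 25 of apoptosis, 20 of interferon and innate immunity and 13 of tRNA synthetases and modification. The lipid list does not hold MID1IP1, a switching gene that regulates fatty acid synthesis. Nor does the vesicle list hold the switching genes MUTED, the subunit of BLOC-1, and GORAB, a golgin.

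The 9 members outside the naming rule were taken up after their values were seen, to account for all genes. MDM4 went from 6.94 to 3.01 FPKM for the former leader and from 4.70 to 8.13 FPKM for the new one. PSEN2, a catalytic subunit of gamma-secretase, went from 14.7 to 7.61 FPKM and from 5.58 to 13.8 FPKM. BACE2, an aspartyl protease related to beta-secretase, went from 13.1 to 6.45 FPKM and from 3.76 to 10.4 FPKM. The former leaders of these 3 genes kept between 27.0% of the sum, in MDM4, and 37.3%, in BACE2. GORAB, a golgin, went from 64.8 to 17.4% for its former leader, and TMEM194A, a protein of the inner nuclear membrane now named NEMP1, from 95.7 to 49.9%. TMEM194A was the closest to a tie after depletion, at 5.64 FPKM for the new leader and 5.61 FPKM for the former. VRK2, a serine-threonine kinase, went from 50.5 to 14.6%, PEX19, a receptor for peroxisomal membrane proteins, from 52.8 to 21.7%, and MID1IP1, a regulator of fatty acid synthesis, from 49.3 to 9.3%. LARP4 is the ninth.

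The rule has sharp edges, and genes on both sides of them are alike. Just inside the limit of 30 points were TJP1 with a change of -30.5 points, PPARG with -30.2 points and ZNF193 with -30.1 points. Just outside were MAD1L1 with -29.99 points, MAP3K7 with -29.95 points and DPH5 with -29.7 points. TJP1, the tight junction scaffold ZO-1, went from 9.63 to 3.57 FPKM and from 8.72 to 12.7 FPKM. MAP3K7, a kinase of inflammatory signalling that is not a member, went from 8.56 to 3.17 FPKM and from 7.42 to 10.2 FPKM, much as TJP1 did. A different leading transcript without a change of 30 points was found in 186 eligible genes, and 226 eligible genes (8.76%) had a different leader at all.

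Expression moved with the frequency of switching. Switching genes made up 2.99% of eligible genes with a mean summed FPKM from 10 to 20 (26 of 871), 1.3% from 20 to 40 (11 of 846), 0.429% from 40 to 80 (2 of 466) and 0.253% at 80 or above (1 of 396, CAPNS1). Isoform estimates rest on fewer fragments in genes of low expression, and depth is unknown here, so the part of counting error in the calls was not tested. Switching was also rarer with 2 listed transcripts, 0.88% (11 of 1250), than with 3 or more, 2.18% (29 of 1329). Between 3 and 9 transcripts the percentage had no steady direction. It was 2.33% at 3, 1.22% at 5, 3.6% at 6 and 1.23% at 7, each on 12 switching genes or fewer. The authors' software marked 22 of the 80 leading transcripts as not tested, and in 22 of the 40 genes it had tested both leaders. Both were marked as not tested in CAPNS1, PSEN2, INPP4A and REV1. Only 1 of them was so marked in SETDB1, MTHFD1L, ORC3, LARP4, WTAP, SLC39A9, RBM10, CDC7, GORAB, PEX19, ADAM8, PPARG, SLC26A6 and MID1IP1.

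**Figure D4:**
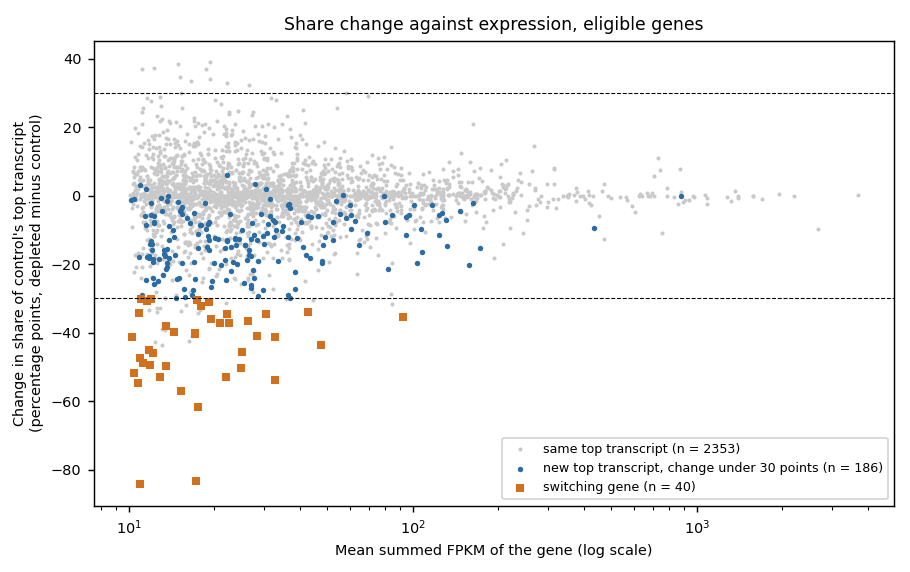
Change in the share of the transcript that led after control siRNA (percentage points, depleted minus control) against the mean summed FPKM (log scale) for the 2579 eligible genes. Orange squares are the 40 switching genes, blue points the 186 genes with a new leader and a smaller change, grey points the genes with the same leader, and dashed lines mark 30 points in either direction; the spread is wider at low FPKM.

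**Figure D5:**
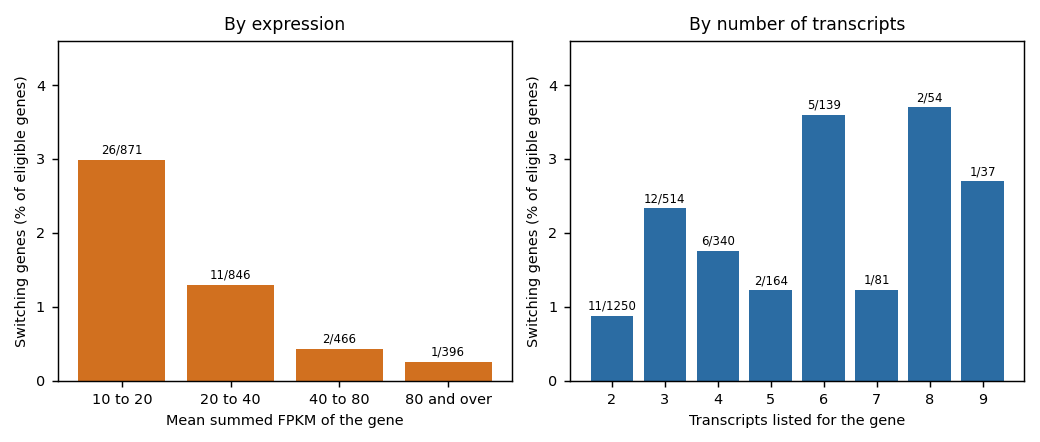
Switching genes as a percentage of eligible genes by mean summed FPKM (left) and by the number of listed transcripts (right), with members over eligible genes above each bar. The left panel goes from 2.99% to 0.253%, and the right panel is lowest, at 0.88%, for genes with 2 transcripts.

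Features that the rule did not use were compared with those of all eligible genes. All 40 were found in the GENCODE annotation, 3 of them under a newer symbol, as were 98.8% of eligible genes. The assembled locus had a median length of 35377 bp, against 37610 bp for eligible genes. The main annotated transcript had a median of 11.5 exons, against 10. The median length of its introns, taken per gene, had a median over genes of 1638 bp, against 1748 bp. The 5′ splice sites of these introns matched the consensus CAGGTAAGT (3 exon and 6 intron bases, read along the gene) at 6.33 of 9 positions (median over genes of each gene's mean), against 6.4. The genes lay on 15 chromosomes, with 8 of 282 eligible genes on chromosome 1 and 5 of 150 on chromosome 6. There were 4 of 111 on chromosome 14 and 4 of 126 on chromosome X, beside 1.55% of all eligible genes (40 of 2579). These figures are medians and counts without a test.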

How the data were processed

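Libraries were made by the authors with the ScriptSeq v2 kit after Ribo-Zero Gold removal of ribosomal RNA and sequenced on a HiSeq 2500. Per the labels and the methods of the study, the authors used cutadapt 1.2.1, TopHat2 2.0.8 on hg19, Cufflinks and cuffmerge, and cuffdiff 2.0.2. The deposited values are FPKM for single transcripts, pooled by the authors over the 2 libraries of a condition, and cuffdiff divides fragments of overlapping transcripts by a model. The fold changes, test statistics, p-values and q-values of the authors' own comparison, also deposited, were not used. The table gives no counts, so depth is unknown and no interval, fit or further test could be made from it.

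Transcripts were grouped by gene symbol, shares were taken from the FPKM without a pseudocount, and the rule was applied as stated in the results. The code was checked on simulated data without noise, which tests only that the rule is applied as written and says nothing on how reliable the calls are. Locus starts were raised by 1 to count from 1. Annotation came from GENCODE 44 on GRCh37, matched by symbol or, through RefSeq, by older symbol with an overlap of loci. Genes named are the 12 with the largest share change, the 10 with the largest sums, up to 3 per list, 3 on each side of the threshold, and SNRNP40. The members, the 21 lists and these rules were chosen with earlier results of these data known. Alternatives changed the limits of the rule, the pseudocount, the grouping and the scaling. The tools were pysam 0.24.0, pandas 2.3.3, matplotlib 3.10.9 and numpy 2.4.6 under Python 3.11.15, with scipy 1.17.1. Results for some genes are not reported here.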

Additional observations from a re-analysis of the deposited data

How the results depend on the processing

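The number of switching genes, 40, followed the limits of the rule. It was 74 with a share change of at least 0.2 and 23 with at least 0.4, and it was 425 without a filter on the sums, 101 with sums of at least 5 and 14 with sums of at least 20. Requiring that the authors' software had tested both leaders gave 22 genes, and this alternative was added with the data in view. In the other settings it lay between 28, with 1 FPKM added to every transcript, and 43, with 10 or more transcripts allowed. Grouping by assembled locus, added likewise, gave 40 genes, 39 of them shared. The percentage of eligible genes, 1.55%, was 0.855% with sums of at least 20, 0.88% for genes with exactly 2 transcripts and 1.09% with 1 FPKM added. Genes with a higher sum, 24 of 40, were 11 of 14 with sums of at least 20 and 25 of 40 after centring of the sums, and genes whose leaders held at least 80%, 22 of 40, were 14 of 28 with 1 FPKM added and 11 of 11 with exactly 2 transcripts. The limits and the number of transcripts change which genes can enter; for the added 1 FPKM, the cause was not tested. The median locus length, 35377 bp, was 43636 bp with sums of at least 20 and 23885 bp with exactly 2 transcripts. No paired analysis was possible because the libraries are pooled, and for the same reason no replicate could be left out. Without replicates, the spread of a share between libraries of 1 condition is unknown.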

Other observations

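Genes with 10 or more listed transcripts lie outside the rule, and DAXX and ATP2C1 are examples that meet its other conditions. DAXX, a histone chaperone, went from 50.6 to 0.0023% for its former leader, with a sum of 27.7 and 31.1 FPKM, and ATP2C1, a calcium pump of the Golgi, from 64.8 to 22.7%. DAXX has 20 listed transcripts under its symbol.

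A further 30 eligible genes kept their leading transcript while its share changed by at least 30 points. In 20 of them the share was lower after depletion. CSNK1E, a casein kinase, went from 98.0 to 54.4% and TMEM219 from 99.996 to 57.3%. In the other 10 the leader gained. GABPB1, a subunit of an ETS-type transcription factor, went from 38.0 to 77.1%, and AP1G1, a clathrin adaptor subunit, from 62.7 to 99.98%. These genes were named after their values were seen, and none of the changes has a replicate error.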
